A study of Mus musculus with 21 samples.

Results

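Among the 21 RNA-seq libraries of mouse bone marrow-derived macrophages, 6 carried a Western diet label, and their level of Ccl5 fell into 2 ranges that did not follow the LPS label. Ccl5, a chemokine that draws T cells and monocytes and is a strong target of lipopolysaccharide (LPS) in macrophages, was used to divide them, so the members of each set were chosen by its measured value. Libraries with a deposited Ccl5 value of 1000 or more are called Ccl5-high, and those under 100 are called Ccl5-low, whatever their label. The 3 Ccl5-high libraries were those labelled WD control 1, WD control 3 and WD + LPS 3. The 3 Ccl5-low libraries were those labelled WD control 2, WD + LPS 1 and WD + LPS 2. Values are given below in these orders. Ccl5 was listed at 7846, 10973 and 6905 in the Ccl5-high libraries and at 13.7, 0.463 and 10.5 in the Ccl5-low libraries. No library lay between the limits, and the values nearest to them were 6905 and 13.7. Since a measured gene made the sets, they are neither treated nor untreated groups, and differences between them are described with no test.

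All donors were C57Bl6/J mice with a stated age of 24 weeks, fed standard chow (ND) or a Western diet (WD) rich in fat, sugar and cholesterol, with 24 weeks of feeding also stated. Total bone marrow was grown for 7 days in medium with 30% supernatant of L929 cells, a source of the macrophage growth factor. LPS-labelled cultures were then given E. coli LPS at 100 ng/ml over 24 h, and control-labelled cultures carry no LPS in their label. Of the groups of 3 libraries used here, WD control, WD + LPS and the chow libraries ND control 4 to 6 share a deposited table, and ND control 1 to 3 and ND + LPS 1 to 3 lie in another. The other chow libraries, with fatty acid pretreatment and LPS, with or without the TLR4 inhibitor TAK242, enter only a shared estimate of spread and a correlation. The labels do not say whether replicates are separate animals or cultures, so p-values measure only the spread between these libraries, which may be technical.

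Before any comparison, 2 features of the labels need stating. Ccl5 and many, though not all, of the genes described below run against the LPS labels in WD control 1, WD control 3, WD + LPS 1 and WD + LPS 2. The chow libraries ND control 4 to 6 had the X-inactivation RNA Xist at 4.56, 3.55 and 7.72 and were listed at 0 for the Y-linked genes Eif2s3y, Ddx3y, Kdm5d and Uty. All 6 Western diet libraries had Eif2s3y between 10.5 and 27.5 and Xist at no more than 0.00455, and the libraries of the other table likewise held Y-linked transcripts and next to no Xist. A difference between the Western diet libraries and ND control 4 to 6 therefore cannot be told apart from this sex-linked difference.

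LPS is sensed by TLR4 with its partners CD14 and MD-2. One arm of the signal acts through MyD88 and NF-kB on inflammatory cytokines, and another through TRIF and IRF3 on type I interferon. Interferon then acts at interferon-stimulated response elements (ISRE) in the promoters of antiviral genes. In macrophages, prolonged LPS is also known to stop cell division and to lower the mannose receptor and other scavenger receptors.

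The promoter sequences of 3 genes from the split are shown because each holds an ISRE match near its start and each gene separates the sets widely. They are RefSeq sequences on GRCm38.p6, the 250 bases before the gene's start, written 5′ to 3′ on the gene's strand, which is the minus strand for each. Capitals mark matches to the spelling searched for the ISRE on either strand, GAAA followed by any 2 bases and then GAAA again; in Isg15, which lies at chr4:156200819-156201068 in this window, 3 matches overlap into a single run. The Rsad2 window is chr12:26456453-26456702 and the Cxcl10 window is chr5:92348890-92349139.
Isg15: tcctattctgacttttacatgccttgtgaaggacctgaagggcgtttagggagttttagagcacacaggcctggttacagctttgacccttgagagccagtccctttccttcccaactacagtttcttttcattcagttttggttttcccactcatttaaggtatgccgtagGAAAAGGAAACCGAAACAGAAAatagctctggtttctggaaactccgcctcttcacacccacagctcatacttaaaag
Rsad2: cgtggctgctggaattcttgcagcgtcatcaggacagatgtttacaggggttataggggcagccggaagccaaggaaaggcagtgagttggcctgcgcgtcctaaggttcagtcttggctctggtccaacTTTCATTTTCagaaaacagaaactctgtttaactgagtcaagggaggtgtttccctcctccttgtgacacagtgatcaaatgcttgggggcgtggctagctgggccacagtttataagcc
Cxcl10: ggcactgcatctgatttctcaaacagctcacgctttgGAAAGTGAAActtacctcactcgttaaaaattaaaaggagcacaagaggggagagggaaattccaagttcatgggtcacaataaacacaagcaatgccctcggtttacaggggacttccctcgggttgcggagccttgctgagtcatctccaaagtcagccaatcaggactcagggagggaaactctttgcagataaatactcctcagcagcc
The ISRE spelling was found in 3.05% of 27025 RefSeq promoter windows and in 3.02% of the 7623 windows matched to genes kept in the Western diet table. Of the genes at least 2-fold higher in the Ccl5-high libraries (defined below), 287 of 412 had a window, and 61 of these, or 21.3%, held it. Of those at least 2-fold lower, 449 of 596 had a window, and 14, or 3.12%, held it. An NF-kB spelling, GGG followed by any 2 bases and then TTTCC on either strand, was in 1.41% of all windows, 1.34% of those of kept genes, 3.83% of the higher genes and 0.891% of the lower genes. No other spelling or window length was searched, and both were chosen after the gene values were seen. A match is a description of the letters and not evidence of binding.

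Of 50644 genes in the table, 10331 reached a value of 1 in 3 or more of its 9 libraries and were kept. For each, the gap is the lowest library of the higher set minus the highest library of the lower set on the log2(value + 1) scale, positive where the Ccl5-high libraries were higher and 0 where the sets overlapped. The sets did not overlap for 1176 genes higher in the Ccl5-high libraries, 11.4% of those kept, and for 4931 lower, 47.7%. After median-ratio scaling of the libraries the counts were 2514 higher (24.3%) and 2524 lower (24.4%), so the share of higher genes among those without overlap went from 19.3% to 49.9%. A gap of at least 1, a difference of at least 2-fold on this scale, was found for 412 higher genes (3.99%) and 596 lower genes (5.77%). These counts describe the sets that Ccl5 made, and nothing is read from their size.

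**Figure D1:**
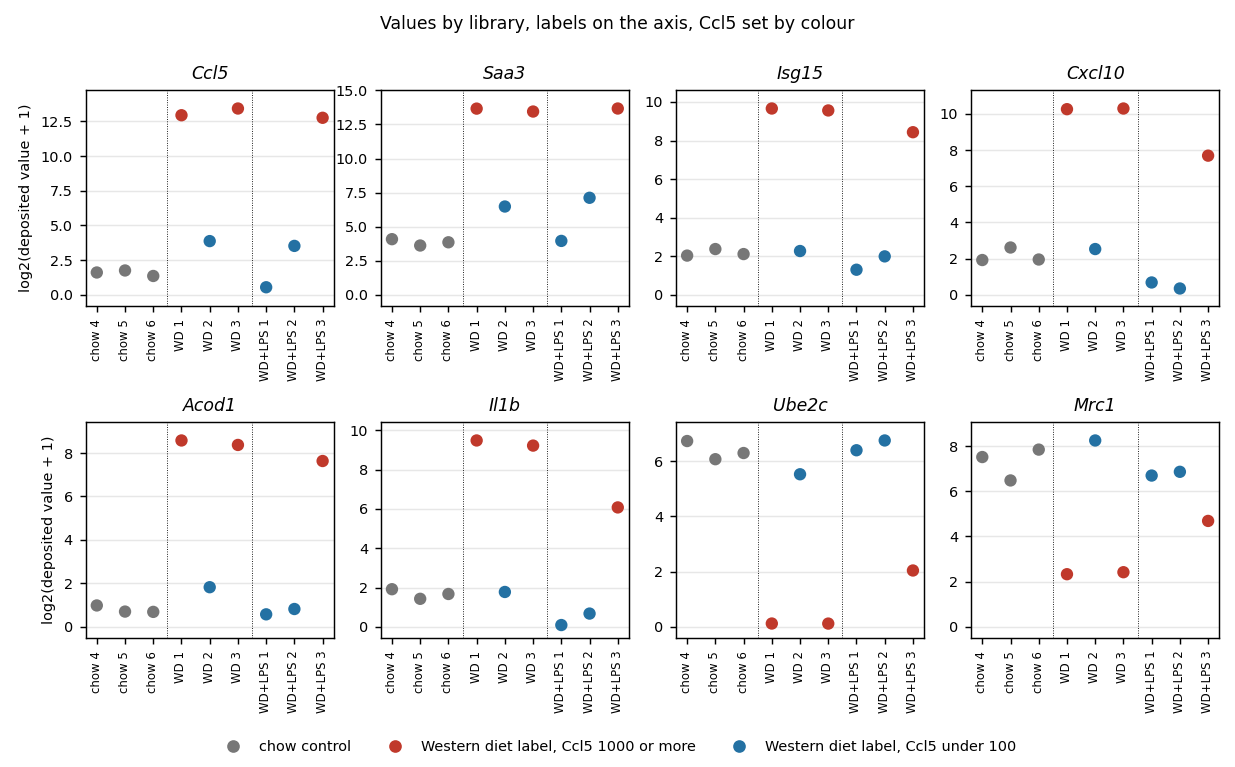
Log2(deposited value + 1) of 8 genes in the 3 chow control libraries and the 6 Western diet libraries, 1 point per library, with the label on the axis and the Ccl5 set by colour (each panel has its own vertical scale). Points of WD 1, WD 3 and WD+LPS 3 lie above the other Western diet libraries for Ccl5, Saa3, Isg15, Cxcl10, Acod1 and Il1b. They lie under them for Ube2c and Mrc1. For Cxcl10, Il1b, Ube2c and Mrc1, WD+LPS 3 stands apart from WD 1 and WD 3, toward the other set.

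The largest gaps with the Ccl5-high libraries higher belonged to secreted defence proteins and interferon-stimulated genes. After Ccl5 (chr11:83525778-83530518, minus strand, gap 8.88) came Ms4a4c, a membrane protein gene, at 1020.5, 1087 and 550 against 1.22, 0.236 and 1.24. Cfb, complement factor B, was listed at 1212, 1085 and 996 against 2.36, 0.79 and 3.21, with all 3 Ccl5-high libraries far above the others. Lcn2, the iron-sequestering protein lipocalin 2, had 4792, 2634 and 1133 against 6.91, 4.07 and 9.75. Saa3, an acute-phase serum amyloid (chr7:46711998-46715700, minus strand), reached 12981, 11192 and 13051 against 88.4, 14.5 and 138. Its Ccl5-low libraries spread more widely than the chow controls at 16, 11.3 and 13.5, with WD control 2 and WD + LPS 2 above them. Ifi205, of the interferon-inducible p200 family, was at 291, 698 and 309 against 1.86, 0.132 and 0.273, and shares sequence with its neighbours, so its own level is uncertain.

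Isg15, a ubiquitin-like protein (chr4:156199424-156200818), stood at 808, 754 and 344 against 3.83, 1.47 and 2.99. Rsad2, which encodes the antiviral enzyme viperin (chr12:26442753-26456452), stood at 501, 569 and 124 against 1.04, 0.209 and 0.636. In both genes WD + LPS 3 was the lowest of the Ccl5-high libraries and still far above every Ccl5-low library.

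At the other end, genes of the dividing cell were lower in the Ccl5-high libraries. Ube2c, a ubiquitin-conjugating enzyme that acts in mitosis (chr2:164769898-164778822, plus strand), was at 0.0865, 0.0849 and 3.11 against 45, 83 and 106, a gap of -3.48. Birc5, which encodes survivin, was at 0.29, 0.221 and 3.3 against 42.6, 70.7 and 87.6. Ccna2, cyclin A2, was at 1, 0.81 and 2.87 against 37.2, 43.9 and 51.2. In each, WD + LPS 3 held more than WD control 1 and 3 but stayed under the lowest Ccl5-low library. Among genes outside division, Plau, urokinase, was at 8.63, 10 and 10.5 against 505, 108 and 109, and Igfbp4, which binds insulin-like growth factors, at 0.502, 0.355 and 2.5 against 41.8, 39.6 and 34.4. S100a4, a calcium-binding protein, had a gap of -3.96 and Crip1, a small LIM-domain protein, a gap of -3.25. The largest negative gap, -4.99, was that of Mrnip, with 0.207, 0.199 and 0.256 against 38.9, 57.1 and 39.8.

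Strand-specific counting is not given in the sources used here, so genes that overlap another gene carry a limit. Mrnip overlaps Sqstm1, Ube2c overlaps Tnnc2, Ccna2 overlaps Exosc9, Cxcl10 overlaps Art3 and Ms4a4c overlaps Gm5692 on the opposite strand, and S100a4 overlaps Gm42674 and Cfb overlaps Gm20547 on the same strand. Their reads may be split or shared with those partners.

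The chow libraries ND control 1 to 3 and ND + LPS 1 to 3 took no part in the Ccl5 rule, and they give the LPS response of these cells by label. In limma's fit, 6463 of 10476 genes passed an adjusted p of 0.05, or 61.7%. Of these, 1444 rose (13.8%) and 5019 fell (47.9%). The median log2 change over all genes was -0.31 and went to 0.04 after median-ratio scaling, with 2977 genes then rising and 2705 falling, so small decreases depend on the scaling. The genes with the largest gaps also changed here. Saa3 rose by 11.65 ± 0.52 on the log2 scale (SE, 3 libraries against 3, adjusted p = 1.5e-08), Isg15 by 6.35 ± 0.30 (adjusted p = 2.0e-08) and Cfb by 9.55 ± 0.16 (adjusted p = 3.1e-11). Ube2c fell by 5.37 ± 0.14 (adjusted p = 3.4e-10) and Plau fell by 3.54 ± 0.11 (adjusted p = 1.1e-09).

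Of the 407 genes with a positive gap of at least 1 that were tested in chow cells, 373 rose with LPS, or 91.6%, and 0 fell, beside 13.8% rising and 47.9% falling among all genes tested. Of the 594 with a negative gap of at least 1, 561 fell, or 94.4%, and 0 rose. With any gap, 780 of 1166 higher genes rose (66.9%) and 30 fell, and 3437 of 4739 lower genes fell (72.5%) and 57 rose. Read the other way, 780 of 1331 LPS risers kept in both tables were higher in the Ccl5-high libraries (58.6%), beside 11.4% of all kept genes. Of the fallers, 3437 of 4853 were lower (70.8%), beside 47.7%. After scaling the shares over all kept genes were 24.3% higher and 24.4% lower, and the numbers of risers and fallers depend on scaling too. The comparison shares no library between its sides. Its higher genes include Ccl5, which made the sets. Of the 10331 kept genes, 171 reached 1 only in Ccl5-high libraries and so had to be higher in them. These genes were not taken out of the counts above.

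Set against the chow controls library by library, the 250 genes that rose at least 4-fold with LPS had a median difference on the log2(value + 1) scale of 3.36, 3.61 and 2.85 in the Ccl5-high libraries. In the Ccl5-low libraries the medians were 0.12, -0.19 and -0.13. The 341 genes that fell at least 4-fold had medians of -2.73, -2.76 and -1.90 in the Ccl5-high libraries and -0.20, 0.07 and 0.09 in the others. WD + LPS 3 was the least shifted of the Ccl5-high libraries for both groups of genes. Across 10019 genes kept in both tables, the Pearson correlation with ND control 1 to 3 was 0.721 to 0.843 for the Ccl5-high libraries and 0.933 to 0.971 for the Ccl5-low libraries. With ND + LPS 1 to 3 it was 0.891 to 0.971 and 0.806 to 0.843. These correlations are across genes and describe likeness only.

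**Figure D2:**
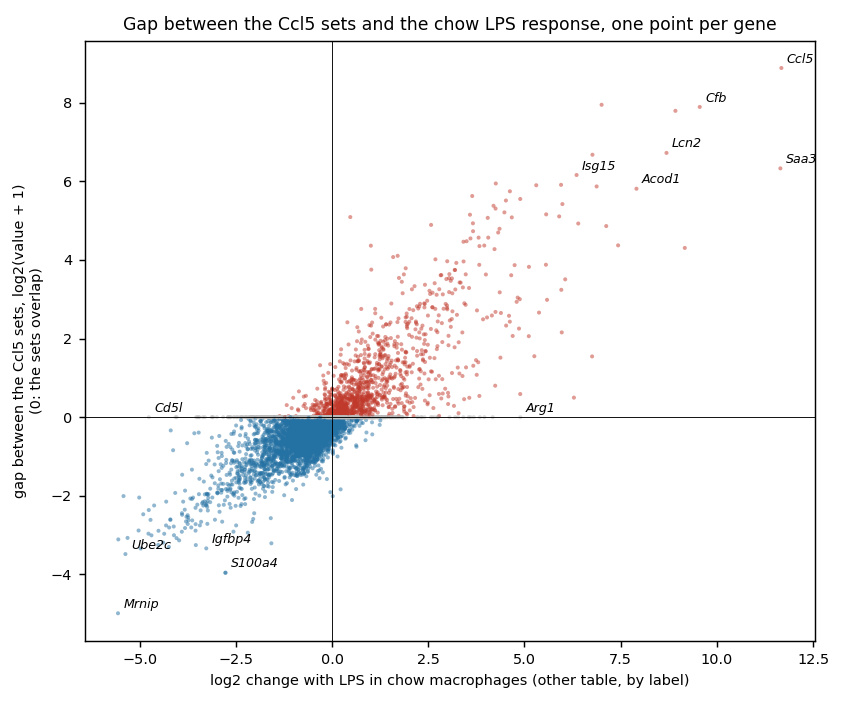
Gap between the Ccl5 sets on the log2(value + 1) scale (vertical, 0 where the sets overlap) against the log2 change with LPS in chow macrophages of the other table (horizontal), 1 point per gene tested in both. Genes with a gap of at least 1 lie at the upper right (373 of 407 rose in chow cells) and those with a gap of -1 or less at the lower left (561 of 594 fell).

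Many chemokines and cytokines were higher in the Ccl5-high libraries, with WD + LPS 3 at a lower level for several. A gene under 1 in the 6 other libraries of the table was kept only through the Ccl5-high libraries and so had to be higher in them. This held for 171 of the 10331 genes, and the counts over lists below describe kept genes only. Each of these counts stands beside 11.4% higher and 47.7% lower among all kept genes, or 24.3% and 24.4% after scaling. The list of interferon-inducible chemokines holds Ccl5 itself, which made the sets, and Cxcl9, Cxcl10 and Cxcl11, which also did not overlap; 2 of the 4 were kept only through the Ccl5-high libraries. Cxcl10, a ligand of CXCR3 (chr5:92346638-92348889), was at 1221, 1252 and 205 against 4.78, 0.608 and 0.277, and rose in chow cells by 5.56 ± 0.38 (adjusted p = 3.4e-07). Cxcl9, a further CXCR3 ligand, was at 35.1, 31.3 and 1.67 against 0.165, 0 and 0, so that WD + LPS 3 was far under the other Ccl5-high libraries. Of 18 other chemokines, 11 were kept, 8 of them higher and 1, Pf4, lower (9 and 0 after scaling). Among them Ccl2, the main attractant of monocytes, was at 1098, 1126 and 726 against 218, 82 and 76.1. All 6 libraries lay above ND control 4 to 6 at 33.5, 51.7 and 39.8. ND control 1 to 3 of the other table held Ccl2 at 73.8, 81.7 and 49.2, so WD + LPS 1 and 2 were not clearly above those. Ccl7, which shares the receptor CCR2, was at 1256, 1422 and 574 against 120, 27.7 and 31.2.

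Of 21 cytokine genes found, 13 were kept, and 9 were higher and 0 lower (11 and 0 after scaling), 3 of them kept only through the Ccl5-high libraries. Il1b, the fever-inducing interleukin-1 beta (chr2:129364570-129371139, minus strand), was at 717, 598 and 66.6 against 2.42, 0.0651 and 0.596, and rose in chow cells by 9.17 ± 0.62 (adjusted p = 3.2e-07). Il10, an anti-inflammatory cytokine, was at 13.2, 17.3 and 10.6 against 0.331, 0.296 and 0.324. Il6 was at 19.8, 16.2 and 1.17 against 0.0246, 0 and 0.0309, and Il12b at 8.89, 4.38 and 1.32 against 0.0524, 0 and 0.0139. Tnf overlapped between the sets as deposited, though after scaling they parted by 0.11: it was at 64.6, 53.1 and 14.3 against 17.8, 2.41 and 2.41, with WD control 2 above WD + LPS 3. In chow cells Tnf rose by 3.60 ± 0.39 (adjusted p = 1.3e-05).

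The receptor that senses LPS and its adaptors mostly overlapped between the sets as deposited, with 3 of 14 kept genes higher and 1 lower. After scaling most did not overlap, with 8 higher and 1 lower. Among all genes 11.4% were higher as deposited and 24.3% after scaling. Tlr4 overlapped, at 1.29, 1.51 and 2.97 against 3.58, 2.61 and 2.4, as did Cd14, at 75.6, 53.5 and 33.2 against 35.5, 9.43 and 10, with a gap of 0.33 after scaling. Tlr3, a sensor of double-stranded RNA, was higher, at 13.4, 9.47 and 9.85 against 0.967, 0.942 and 0.795, though in chow cells its change of 0.40 ± 0.21 did not pass (adjusted p = 0.12). Among NF-kB factors and their feedback inhibitors, 11 of 17 kept genes were higher (14 after scaling), against 11.4% of all genes (24.3% after scaling). The inhibitors led: Irak3 was at 36.7, 29.9 and 25.5 against 6.59, 3.46 and 3.72, and Zc3h12a, an RNase that degrades cytokine mRNA, at 15, 14 and 10 against 2.29, 1.75 and 1.98. Rel, Rela, Relb and Nfkb1, subunits of NF-kB itself, overlapped as deposited, and Rel, Rela and Relb had gaps of 0.01 to 0.08 after scaling.

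Interferon genes were higher almost throughout. Of 40 antiviral interferon-stimulated genes, 39 were kept and 38 were higher, the same number after scaling, and 13 were kept only through the Ccl5-high libraries. The median gap of the 39 was 3.61 as deposited, and over all kept genes it was 0. The exception, Ifi35, was at 171, 154 and 73.0 against 23.8, 159 and 196. In chow cells 38 of these 39 genes rose with LPS. Usp18, which removes ISG15 from proteins, was at 488, 534 and 184 against 2.08, 1.38 and 1.62. Factors of this pathway were higher too: Irf7 at 698, 717 and 317 against 4.45, 1.1 and 1.38, and Stat2 at 97.9, 125 and 63.4 against 5.69, 7.67 and 6.78. Of the 14 kept IRF and STAT genes, 6 were higher and 1, Stat4, was lower (10 and 1 after scaling), and Irf3, which acts upstream of interferon, overlapped.

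The GBP and IRG GTPases, which attack the vacuoles of microbes inside the cell, were higher in 14 of 14 kept genes, of which 9 were kept only through the Ccl5-high libraries and so had to be higher. Gbp2 was at 519, 604 and 188 against 1.83, 2.05 and 3.03. Tgtp1 was at 64.6, 100.4 and 20.9 against 0.0648, 0.0402 and 0.0468, while in chow cells its change of 1.01 ± 0.45 did not pass (adjusted p = 0.071). Antigen presentation through MHC class I was higher in 19 of 19 kept genes, 2 of them kept only through the Ccl5-high libraries, beside 11.4% of all genes. Its light chain B2m was at 5062, 5635 and 3810 against 1047, 883 and 868. H2-Q6 and H2-Q7 are near-identical copies, as are Tgtp1 and Tgtp2, and their single values are uncertain. Of 6 kept class II genes 4 were higher (5 after scaling), among them H2-Ab1 at 18.1, 18.9 and 16 against 1.35, 1.49 and 2.03. Cd274, which encodes the checkpoint ligand PD-L1, was at 118, 129 and 49.9 against 0.669, 2.86 and 3.11.

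Of 8 kept genes of arginine, nitric oxide and itaconate metabolism, 5 were higher and 3 overlapped, the same counts as after scaling. Acod1, which makes itaconate (chr14:103046977-103056573, plus strand), was at 382, 331 and 198 against 2.54, 0.49 and 0.766, and rose in chow cells by 7.91 ± 0.13 (adjusted p = 3.1e-11). Nos2, the inducible nitric oxide synthase, was at 192, 229 and 11.6 against 0.173, 0 and 0.00528, with WD + LPS 3 well under the other Ccl5-high libraries. Arg1, which competes with it for arginine, followed another order: it was at 49.2, 46.4 and 391 against 25, 77.6 and 74.1, while ND control 4 to 6 held 0.401, 0.821 and 0.556. The sets overlapped, and all 6 libraries with a Western diet label were far above those chow controls. In chow cells Arg1 rose with LPS by 4.89 ± 0.11 (limma adjusted p = 1.7e-10). It was at 85.2, 70.6 and 85.9 in ND + LPS 1 to 3.

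**Figure D3:**
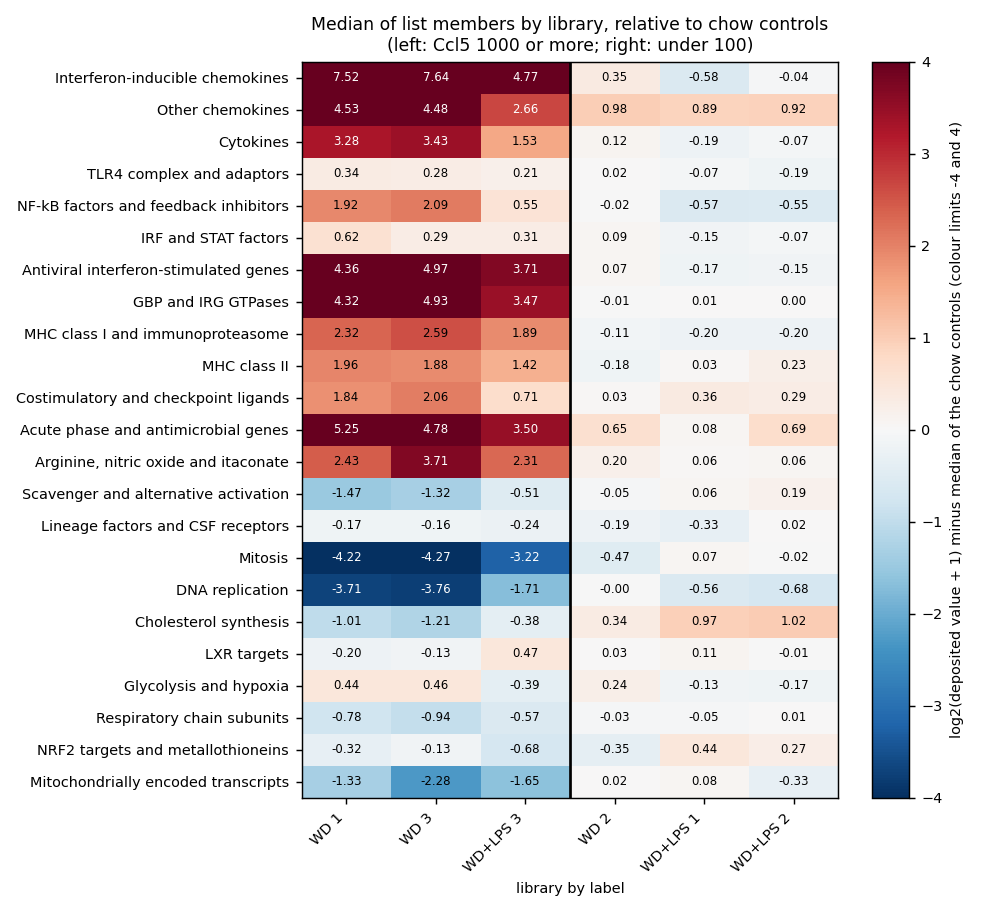
Median over the kept members of each gene list of log2(deposited value + 1) minus the median of the 3 chow controls, for each Western diet library (columns by label, Ccl5-high to the left of the line). Interferon and chemokine lists are high and division lists low in the 3 left columns, with WD+LPS 3 the least shifted for antiviral genes at 3.71 and for mitosis at -3.22.

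Cell division was lower in the Ccl5-high libraries throughout the lists, with 21 of 21 mitosis genes and 20 of 20 DNA replication genes lower, against 47.7% of all genes; after scaling these were 21 and 19, against 24.4%. Mki67, the proliferation antigen Ki-67, was at 0.0447, 0.119 and 1.11 against 9.79, 13.5 and 15. Rrm2, a subunit of the enzyme that makes deoxynucleotides, was at 0.77, 0.482 and 4.99 against 55.6, 45.5 and 40.9. In chow cells 21 of the 21 mitosis genes fell with LPS, as did 19 of the 20 replication genes.

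Of 16 kept scavenger and alternative activation genes, 9 were lower and 2 higher (6 and 2 after scaling), beside 47.7% lower among all genes as deposited and 24.4% after scaling. Mrc1, the mannose receptor (chr2:14229392-14332057, plus strand), was at 4.02, 4.34 and 24.8 against 303, 103 and 115, and fell in chow cells by 5.42 ± 0.21 (adjusted p = 5.4e-09). Gas6, a bridge between dying cells and the receptors Axl and MerTK, was at 5.41, 4.78 and 34.4 against 145, 424 and 463. Msr1, the class A scavenger receptor, went the other way, at 90.8, 111 and 269 against 61.6, 18.7 and 14.2.

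Counts of lipid and energy genes depended on scaling, and stand beside 47.7% lower among all genes as deposited and 24.4% after scaling. Of 22 kept cholesterol synthesis genes 20 were lower, and 12 after scaling. Sqle, squalene epoxidase, was at 2.27, 2.05 and 5.2 against 17.8, 26.2 and 25.1, and kept a gap of -1.21 after scaling from -1.60. Nr1h3, the sterol-sensing receptor LXR alpha, was higher at 44.4, 32 and 32.6 against 5.41, 1.63 and 1.85, yet of 9 kept LXR targets 3 were higher and 3 lower (4 and 1 after scaling). Of 22 glycolysis and hypoxia genes 4 were higher and 3 lower (8 and 0 after scaling), with Pfkfb3, which raises glycolytic flux, at 99.2, 162 and 82.2 against 4.72, 10.7 and 11.4. Of 20 respiratory chain genes 15 were lower, but 6 lower and 1 higher after scaling, a share near that of all genes. Of 13 mitochondrially encoded transcripts 12 were lower, and 8 after scaling. Among 11 NRF2 targets and metallothioneins 1 was higher and 4 lower (2 and 1 after scaling), the higher one being Hmox1, heme oxygenase 1, at 1308, 1187 and 1686 against 401, 474 and 478.

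The libraries carried macrophage markers throughout. The summed level of 8 macrophage markers was 8942 to 11801 in the Ccl5-high libraries, 13323 to 18133 in the Ccl5-low libraries and 12851 to 14594 in the chow controls. Of these markers 4 were higher and 3 lower (4 and 1 after scaling), with Fcgr1, an Fc receptor that interferon induces, at 362, 350 and 251 against 26.8, 10.7 and 13.8. Markers of T and NK cells, dendritic cells, mast cells and their kin, and erythroid cells had 0 kept genes. The dendritic markers nonetheless summed to 0.767 to 3.75 in the Ccl5-high libraries and 0.0952 to 0.103 in the Ccl5-low libraries, mostly through Xcr1, while the defining markers Flt3 and Zbtb46 stayed near 0. Of 9 neutrophil markers 3 were kept, with sums of 5.91 to 19.8 in the Ccl5-high and 1.69 to 30.4 in the Ccl5-low libraries. Of 6 B cell markers 2 were kept, with sums of 0.32 to 1.77 and 4.03 to 6.25, and of 8 stromal markers 2 were kept, with sums of 3.40 to 7.97 and 2.03 to 4.15. In bulk RNA, fewer cells of a type and less RNA per cell cannot be told apart, and the part of these cells in the results was not tested.

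Compared by their labels, as the design has it, the WD + LPS and WD control libraries differed in few genes. Limma called 99 of 10331 genes, or 0.958%, of which 70 were higher (0.678%) and 29 lower (0.281%) with the LPS label, and 1779 had an unadjusted p under 0.05. For all 99 the Ccl5 sets overlapped, as they did for 4224 of the 10331 genes. Each set holds libraries of both labels, so a gene whose libraries separate by label must overlap between the sets, and nothing is read from this. Ccl5 itself gave a log2 change of -4.47 with an adjusted p of 0.48, and Isg15 gave -3.25 with an adjusted p of 0.46, both with the LPS label at the lower mean. Of the 65 higher genes tested in chow cells, 46 fell with LPS and 3 rose; of the 27 lower genes, 12 rose and 2 fell; among all genes tested there, 47.9% fell and 13.8% rose. The count rested on single libraries: without WD control 2 it was 4086, without WD + LPS 3 it was 747, and without any other Western diet library it was 18 to 24. It was 2 when the chow controls were left out of the estimate of spread.

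Within each Ccl5 set, 1 library carries the other label, so the label and that library cannot be told apart within a set. In the Ccl5-high set, WD + LPS 3 lay at least 2-fold above or below both other libraries in 791 genes, against 59 and 74 for WD control 1 and 3. Only genes whose other libraries lay within 2-fold of each other were counted. This rule removes genes from the counts of libraries compared with a divergent one, so it makes part of the contrast. By the same rule WD control 2 stood apart in 784 genes of the Ccl5-low set, against 45 and 63 for WD + LPS 1 and 2. The label gaps within a set use different libraries in the 2 sets. By a gap of at least 1 in both, 131 genes were higher and 66 lower with the LPS label in both sets, and 32 went in opposite directions. A fit with the Ccl5 set as a term beside the label, added after the data were seen, called 1195 genes for the label (11.6% of those tested), 745 higher (7.21%) and 450 lower (4.36%). Its sets come from the measured Ccl5 values, so its p-values rest on a grouping made from the data and support no call of the first fit.

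The genes named next were chosen after their values were seen, as the 6 in each direction with the largest value of the smaller of their 2 label gaps: Ctse, Ccl6, Mgst2, Syngr1, Fabp5 and Chil3 higher, and Id3, Itgal, Rapgef5, Dmwd, Mmp14 and Cxcl10 lower. Syngr1 overlaps Rpl3 on the opposite strand. Ctse, the protease cathepsin E, was at 0, 0.037 and 8.87 in the Ccl5-high and 0.0301, 23.4 and 39.4 in the Ccl5-low libraries. It rose with the label by 4.38 ± 0.44 (adjusted p = 0.0049, 0.10 when only the compared libraries entered the fit). Ccl6, a chemokine of myeloid cells, was at 6.31, 6.28 and 82.4 and at 24.9, 200.5 and 314, with a label change of 3.97 ± 0.60 (adjusted p = 0.027, 0.12 to 0.16 when WD control 1 or 3 or WD + LPS 1 or 2 was left out). Chil3, a chitinase-like protein of alternatively activated macrophages, was at 0.588, 0.789 and 18.6 and at 1.69, 14.6 and 21.5, a change of 3.27 ± 0.25 (adjusted p = 0.0022, 0.056 with only the compared libraries). Fabp5, a fatty acid carrier, was at 69.9, 66.2 and 434 and at 43.8, 1507 and 1819, a change of 4.15 ± 0.50 (adjusted p = 0.011, 0.055 to 0.066 without any of the same 4 libraries). With only the compared libraries, limma's adjusted p was 0.22 for Ccl6 and 0.14 for Fabp5. In each of the 4, all LPS-labelled libraries were above all control-labelled ones. In chow cells Ctse, Ccl6 and Fabp5 instead fell with LPS, by 1.34 ± 0.13, 3.00 ± 0.29 and 3.46 ± 0.37 (limma adjusted p = 6.5e-06, 6.1e-06 and 1.3e-05). The change of Chil3 there did not pass (adjusted p = 0.49). The chow controls also differed between the tables: Fabp5 was at 1347 to 1624 in ND control 1 to 3 and 29.2 to 36.3 in ND control 4 to 6. For Ccl6 these were 231.5 to 275 and 4.32 to 6.34.

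Lower with the label were Id3, an inhibitor of helix-loop-helix factors, and Itgal, the integrin chain CD11a. Id3 was at 6.91, 8.09 and 0.192 and at 20.7, 0.394 and 0.285, and fell by 3.17 ± 0.35 (adjusted p = 0.0084, 0.055 without WD + LPS 2). With only the compared libraries, limma's adjusted p for Id3 was 0.11. Itgal was at 288, 229 and 43 and at 98.5, 6.37 and 3.57, and its change of -4.04 ± 0.79 did not pass by label (adjusted p = 0.061). In chow cells Itgal rose with LPS by 3.68 ± 0.19 (limma adjusted p = 3.7e-08), and the change of Id3 did not pass (adjusted p = 0.17). Id3 was at 0.993 to 1.26 in ND control 1 to 3 and at 30.2 to 33.1 in ND control 4 to 6. Cxcl10, described above, had label gaps of -2.57 in the Ccl5-high and -1.85 in the Ccl5-low set, so that it was lower with the LPS label inside both sets.

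**Figure D4:**
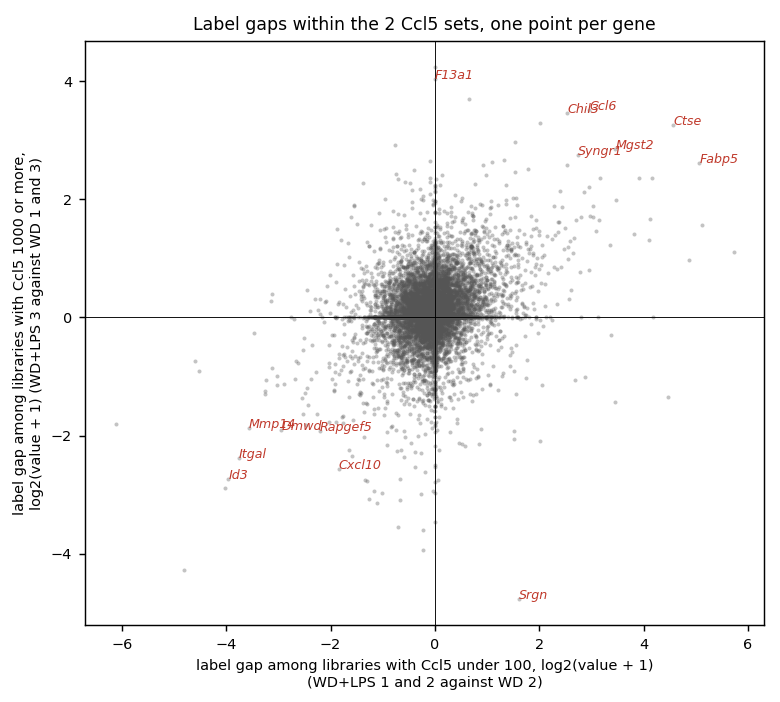
Label gap (LPS-labelled against control-labelled, log2(value + 1), 0 where they overlap) within the Ccl5-high set (vertical) against that within the Ccl5-low set (horizontal), 1 point per gene. Of genes with a gap of at least 1 in both, 131 lie at the upper right and 66 at the lower left.

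Several strongly LPS-responsive genes of chow cells did not separate the Ccl5 sets. Of the 250 genes that rose at least 4-fold, 229 were higher and 21 overlapped, and of the 341 that fell at least 4-fold, 293 were lower and 48 overlapped. Genes kept only through the Ccl5-high libraries were not taken out of these counts. Cd5l, a scavenger protein of macrophages, was at 0.703, 0.661 and 5.72 and at 0.799, 18.9 and 35.3, and fell in chow cells by 4.76 ± 0.21 (adjusted p = 1.2e-08). Fabp4, the adipocyte and macrophage fatty acid carrier, was at 2.53, 3.25 and 11.5 and at 1.53, 86.8 and 97.8, and fell in chow cells by 4.04 ± 0.15 (adjusted p = 4.4e-09). WD control 2 was low for both, as were ND control 4 to 6, whereas ND control 1 to 3 of the other table held Fabp4 at 103, 95.2 and 98.2. Levels across the tables rest on an unknown common normalization. Gpr84, a receptor for medium-chain fatty acids, was at 44.2, 32.2 and 18.9 and at 46, 0.873 and 0.934, and Cd38, an NAD-consuming enzyme, at 21.8, 18.7 and 117 and at 0.0479, 14.7 and 22.3, with a gap of 0.29 after scaling.

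**Figure D5:**
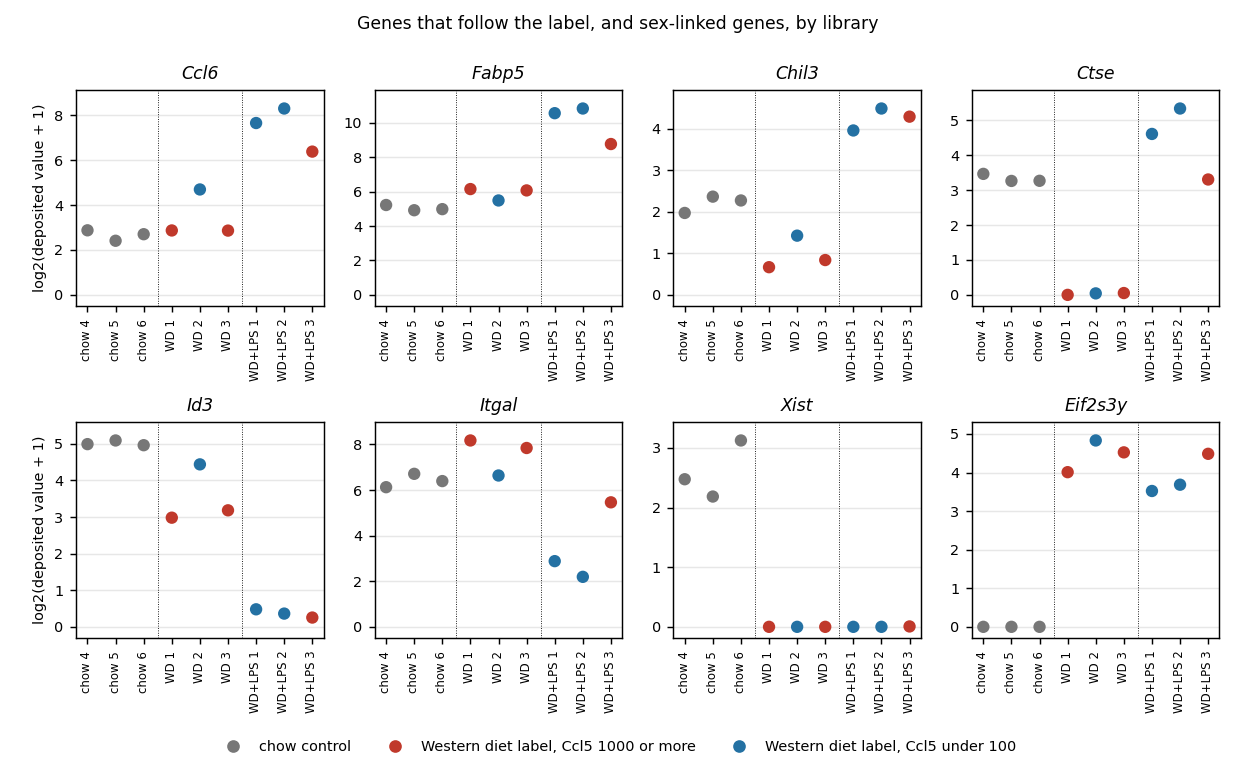
Log2(deposited value + 1) of 6 genes that follow the LPS label and of the sex-linked genes Xist and Eif2s3y, 1 point per library, labels on the axis and Ccl5 set by colour (each panel has its own vertical scale). WD+LPS 1, 2 and 3 stand together for Fabp5, Chil3 and Id3, and Xist and Eif2s3y divide the chow controls from all 6 Western diet libraries.

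Against ND control 4 to 6, the mean of the 2 Western diet groups differed in 67 of 10331 genes (0.649%), 24 higher (0.232%) and 43 lower (0.416%), and 1811 had an unadjusted p under 0.05. The sex-linked Eif2s3y and Tsix, which overlaps Xist, were among them. The Western diet side holds the WD + LPS libraries, while the chow side holds no LPS-labelled library. The contrast therefore mixes the diet label with the LPS label. Arg1 was higher by 5.51 ± 0.52 (adjusted p = 0.0041). Gpnmb, a glycoprotein of lipid-loaded macrophages, was at 182, 226 and 718 and at 101, 1784 and 2343, against 57.6, 46.4 and 45.4 in chow, a change of 3.26 ± 0.40 (adjusted p = 0.014, 0.056 to 0.13 without WD control 1 or any single chow control). Hpgd, which inactivates prostaglandins, fell by 3.68 ± 0.52 (adjusted p = 0.030), and Cd207, the lectin langerin, fell by 3.48 ± 0.57 (adjusted p = 0.043). Both calls were lost without most single libraries, and WD control 2 held the highest level of the 6 for each, 4.47 for Hpgd and 5.93 for Cd207. In the other table, ND control 1 to 3 held Gpnmb at 2125, 1543 and 1368, Hpgd at 0.507 to 0.552 and Cd207 at no more than 0.0393. The calls of Gpnmb, Hpgd and Cd207 are therefore against ND control 4 to 6 and not against chow controls in general. Arg1 was low in ND control 1 to 3 too, at 1.59 to 1.90, but was at 70.6 to 85.9 in ND + LPS 1 to 3. The count was 4495 without WD control 2, 101 without WD + LPS 3 and 15 to 30 without any other single library.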

How the data were processed

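RNA was sequenced from 21 macrophage libraries in 6 groups by label. The submitters' processing notes name HISAT2 2.0.5 and Trim Galore 0.4.1, besides FastQC 0.11.5 and CASAVA 1.8.2. They list the builds mm9 and mm10 with no role; the quantification tool is not given in the sources used here. The deposited values are normalized levels of unnamed unit, handled as a score. They behave like values per length and depth, so depth is unknown and no counting interval is given; sums per library ran from 321532 to 386023. Entries with displaced numbers were left out (36 entries of 17 gene IDs and 35 of 18), and 50336 and 50335 gene IDs had symbols in a reference table.

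Genes at 1 or more in at least 3 libraries of a table were kept. Log2(value + 1), which understates changes of low genes, was fitted within each table by limma 3.58.1 (R 4.3.3, trended prior variance), all libraries sharing the spread, and p-values were adjusted by Benjamini-Hochberg over all genes tested. Errors of log2 changes are standard errors. The fit was tested on simulated data. Genes were named by fixed rules: the 8 largest gaps each way at 10 or more, up to 4 per list, focal genes, the 6 largest changes against chow, the 6 largest LPS changes whose sets overlap, and those apart within a set; names of clones and gene models were left out, a filter completed after values were seen. B2m, Msr1, Ifi35, Pf4, Stat4, Irf3 and the NF-kB subunits are list members outside that rule, named after their values were seen. The members, lists and rules were chosen with earlier results of these data known. Coordinates are those of the files and equal GENCODE M21 (GRCm38) in 46855 genes of the Western diet table. Alternatives were pseudocount 0.1, other filters, median-ratio scaling, a replicate block, single libraries left out and, added later, the Ccl5 set as a term.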

Additional observations from a re-analysis of the deposited data

How the results depend on the processing

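Counts of genes past an adjusted p of 0.05 or without overlap are given here under each alternative that moved them by more than 1.5 times. For the chow LPS response (6463) the filter at 5 or more left 4303, and leaving out single libraries gave 5872 to 6357. For the LPS label among Western diet libraries (99) the filter at 5 gave 58, the compared libraries alone 2, median-ratio scaling 200, the Ccl5 set as a term 1195 and that term with scaling 1241, and leaving out single libraries gave 18 to 4086. For the Western diet label against chow (67) pseudocount 0.1 gave 35, no filter 103, the filter at 5 gave 19 and leaving out single libraries 15 to 4495. Of the split, higher genes (1176) became 1959 with no filter, 2514 with scaling and 412 at a gap of at least 1, and 1247 to 1738 without single libraries; lower genes (4931) became 2524 with scaling and 596 at a gap of at least 1, and 5128 to 5870 without single libraries. In every leave-one-out fit 5364 of the 6463 chow calls were kept, 17 of 99 and 15 of 67. In chow LPS, scaling turned Pgam1 to 0.25, Uqcrc1 to 0.33 and Eif2s3y to 0.13, and Gclm came to -0.57 without ND + LPS 1 and to 0.52 without ND + LPS 3. The causes were not tested.

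In their deviations from the group mean, same-numbered libraries correlated at -0.01, 0.02 and 0.06 in chow LPS. Among Western diet libraries they correlated at -0.67, 0.68 and 0.76, and libraries of unlike number at -0.792 to 0.735. There the positive values joined libraries of the same Ccl5 set and the negative ones libraries of unlike sets. The shared deviations thus followed the Ccl5 set and not the replicate number. With the replicate block the counts were 5183 and 0, the latter with limma and 1779 at an unadjusted p under 0.05 without the block. Against chow no paired analysis was possible because the compared groups share no replicate number. With 3 libraries a group and no read depth, low values carry unknown error. Hdac7, Hexdc and Arhgef4, which stand apart within a set, also jump among replicate chow libraries.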

Other observations

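In some genes 1 library of a Ccl5 set stood far from the other libraries of that set. Srgn, the proteoglycan serglycin, was at 7.14 in WD + LPS 3, under WD control 1 and 3 at 220 and 263 and under all 3 Ccl5-low libraries at 18.7 to 69.1, while in chow cells it rose with LPS by 1.27 ± 0.09 (adjusted p = 6.2e-07). F13a1, a coagulation factor subunit made by macrophages, was at 37.4 in WD + LPS 3 against 1.21 and 1.35 in the other Ccl5-high libraries, yet under the Ccl5-low libraries at 71.1 to 89.8. Dmpk, a kinase best known from muscle, was at 86.3 in WD control 2 and at 48.7 to 55.8 in ND control 4 to 6, against 0.0272 to 3.59 in the other 5 Western diet libraries. Across all 10331 genes kept, WD control 2 correlated at 0.968 to 0.974 with ND control 4 to 6 and at 0.925 to 0.934 with WD + LPS 1 and 2. WD + LPS 1 and 2 correlated with ND control 4 to 6 at 0.926 to 0.940. Across the 10019 genes kept in both tables, WD + LPS 1 and 2 correlated at 0.961 to 0.971 with ND control 1 to 3 of the other table. WD control 2 correlated with those at 0.933 to 0.936. These are likenesses across genes, and their source was not tested.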
